A study of Glycine max with 8 samples.

Results

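Root-specific MNase hypersensitive regions of soybean are stretches of open chromatin that both root libraries listed and no leaf, flower or seed library did. They were found by intersecting the sites of the root libraries, keeping intersections of at least 20 bp, and dropping every one that overlapped a site of another tissue by 1 bp or more. Of 3869 reproducible root regions, 1045 (27.0%) were kept, and they covered 72.4 kb. The listed sites themselves chose these regions, so their number, their width, their placement and their absence elsewhere are a description and carry no test. The 8 site lists of the series hold 442104 distinct sites in all.

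The plants were Glycine max cultivar Williams 82, with 2 libraries for each of 4 tissues. Roots and trifoliate leaves were cut from young vegetative seedlings and, per the seed records, seeds from plants at the pod stage. These plants stood in a greenhouse whose 12 h lit phase was kept at 28 °C and whose dark phase at 25 °C. Flowers were taken in a field from plants at the onset of flowering, so growing place differs together with tissue there. Tissue was fixed with 1% formaldehyde and digested for 10 min with 0, 0.01, 0.03 or 0.1 unit of enzyme, and DNA shorter than 100 bp was recovered from a gel. Both leaf libraries began from 0.5 g of ground tissue, whereas each library of another tissue used 1 g. Input therefore differs together with tissue for leaf, and its part in the leaf comparisons was not tested. Neither the pooling of plants nor the origin of the libraries from separate plants is given in the labels.

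Micrococcal nuclease (MNase) cuts DNA that is not wrapped in nucleosomes or held by other proteins. Light digestion therefore releases short fragments from open stretches such as promoters, enhancers and other places where transcription factors bind. In plants, open chromatin is commonly concentrated in the gene-rich chromosome arms, and the pericentromeric parts are rich in transposable elements and repeats. In bulk tissue, a site open in few cells and one weakly open in many cells cannot be told apart.

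The root lists were far shorter than the others, with 15185 sites in root 1 and 18957 in root 2 against 50078 to 82798 in the leaf, flower and seed lists. They also reached down to 49 bp, whereas no site of the other lists was narrower than 100 bp. Of the root sites, 79.0% in root 1 and 82.3% in root 2 lay under 100 bp. Read depth is unknown, and the absence of a listed site does not show that the chromatin was closed. The part of these list differences in the root-specific set was not tested.

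Most root-specific regions were narrow. Their shared width ran from 20 to 254 bp with a median of 64 bp, and the other 2824 reproducible root regions had a median of 84 bp. Of the root-specific regions, 934 (89.4%, 95% Wilson interval 87.4 to 91.1) were under 100 bp and 111 were at least 100 bp. Among the other reproducible root regions, 59.0% (57.1 to 60.8) were under 100 bp. A narrow region is less likely to touch a site of another tissue, so the rule favours narrow members.

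The 50 to 74 bp class alone held 493 root-specific regions (47.2%). Another 202 measured 20 to 49 bp, 239 measured 75 to 99 bp, 93 measured 100 to 149 bp, 13 measured 150 to 199 bp and 5 were wider still. The full sites behind them were wider than the shared part, with a median of 86 bp in root 1 and 85 bp in root 2. Root 1 had the wider site at 513 regions and root 2 at 520, so neither library set the width. Both libraries had a site of at least 100 bp at 175 root-specific regions, a single library at 405 and neither at 465.

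**Figure D1:**
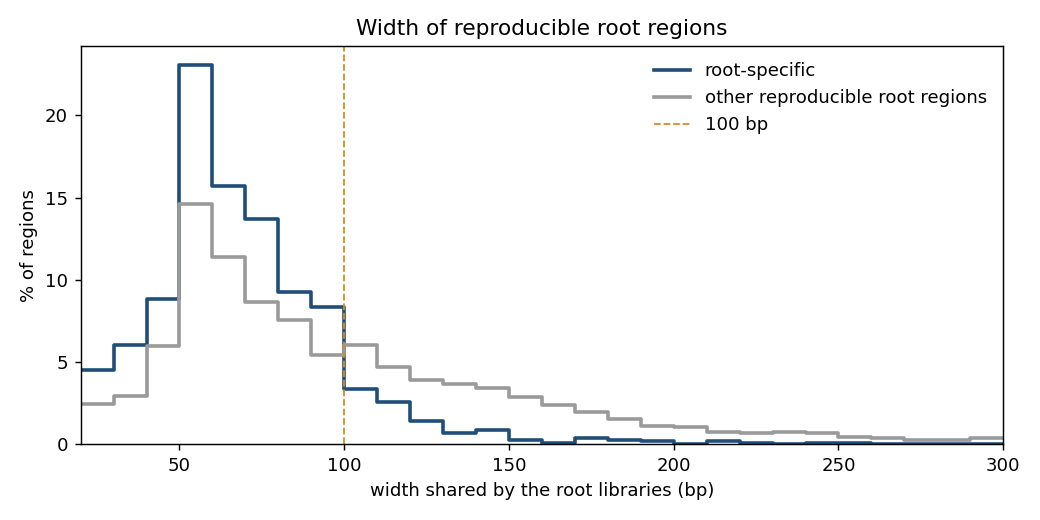
Width shared by the root libraries, in bins of 10 bp, as a percentage of the 1045 root-specific regions (blue) and of the 2824 other reproducible root regions (grey); 111 of the latter reach 300 bp or more and are not drawn. The root-specific regions peak between 50 and 74 bp and few of them (111) reach 100 bp, the dashed line.

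At each root-specific region the root 1 and root 2 sites had to share at least 20 bp. Nearby centres were thus set by the rule and are given as a description. The centres of the root 1 and root 2 sites lay a median of 14 bp apart, and the shared part made up a median of 61.8% of the stretch that the 2 sites spanned together. In the other reproducible root regions the median distance was 17.5 bp and the shared part 63.9%. Several regions were pieces of a single wide site: 25 root-specific regions shared a root 1 site with another one, and 14 shared a root 2 site. These pieces are not independent observations.

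The 5 widest root-specific regions differed in how isolated they were. The widest, at 32113049 to 32113302 on chromosome 6, measured 254 bp inside sites of 266 bp in root 1 and 261 bp in root 2. Sites of other tissues came within 47 bp (leaf 2), 52 bp (seed 2), 67 bp (seed 1), 72 bp (leaf 1) and 158 bp (flower 1) of it, and only flower 2 was distant, at 4547 bp.

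The region at 28328919 to 28329167 on chromosome 4 measured 249 bp and had a leaf 2 site at 130 bp and a seed 1 site at 1059 bp. From the nearest leaf 1, flower and seed 2 sites it was separated by 161267 bp or more. On chromosome 15 the region at 45194067 to 45194287 had its nearest site at 386 bp in leaf 1 and at 391 bp in flower 1. The region at 19033614 to 19033832 on chromosome 10 was the most isolated of the 5, with nothing from another tissue within 5956 bp. At 14299653 to 14299871 on chromosome 20, leaf 2 had a site at 73 bp and the other 5 lists none closer than 1366 bp.

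By chromosome, root-specific regions were most numerous on chromosome 5, with 90, followed by chromosome 6 with 82, chromosome 20 with 76, chromosome 10 with 74 and chromosome 2 with 71. These 5 chromosomes held 393 of the regions (37.6%). Per Mb of the span covered by sites, chromosome 5 had 2.13 and chromosome 11 the fewest, 0.316, around a median of 1.08 over the 20 chromosomes. Chromosome 11 held 11 root-specific regions, all under 100 bp. Every other chromosome held at least 2 of 100 bp or more, and chromosome 10 had the most of these, 14.

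The share of reproducible root regions that were root-specific also varied. It was highest on chromosome 10, where 74 of 171 reproducible regions (43.3%) met no other tissue, and it reached 38.6% on chromosome 5 and 35.0% on chromosome 9. Chromosome 11 was lowest at 16.2%, followed by chromosome 17 at 16.8%. Chromosome 6 had the densest other reproducible root regions, 5.80 per Mb, and a share of 21.6%. A high number of root-specific regions therefore did not always go with a high share.

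**Figure D2:**
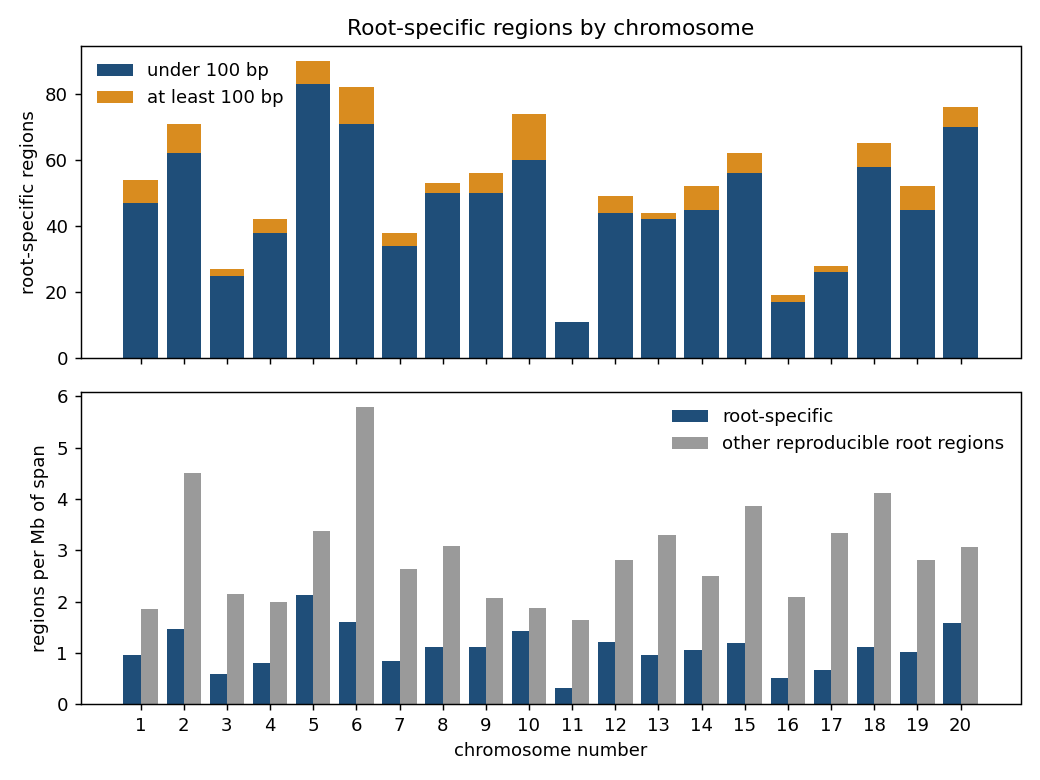
Top, number of root-specific regions on each of the 20 chromosomes, split by shared width; bottom, regions per Mb of span for the root-specific set (blue) and the other reproducible root regions (grey). Chromosome 5 holds 90 root-specific regions and chromosome 11 holds 11.

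Root-specific regions lay mostly away from the chromosome ends. The outer part of a chromosome is taken here as the first and last 20% of its span. Of the 1045 regions, 165 (15.8%, 95% Wilson interval 13.7 to 18.1) lay in the outer parts and 880 in the inner part. Per Mb, the outer parts held 0.281 times as many as the inner part (0.238 to 0.332), a log2 ratio of -1.83. The other reproducible root regions had a ratio of 0.750 (0.693 to 0.811). For whole lists the ratio was 0.984 in root 1 and 1.24 in root 2, and from 2.62 in seed 2 to 3.30 in flower 2 among the other libraries. The leaf, flower and seed lists are thus denser in the outer parts, so exclusion by them can favour inner members. Intersecting the root libraries may do so too. Even the other reproducible root regions, which met another tissue, had a lower ratio (0.750) than either whole root list. The part of each step in the inner placement was not tested. Intervals cover counting error only and treat regions as independent, which neighbours are not.

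Both width classes shared this placement. Regions under 100 bp had an outer-to-inner ratio of 0.296 (0.249 to 0.352) and those of at least 100 bp a ratio of 0.165 (0.0894 to 0.305). The intervals of the classes overlap. In steps of 10% of the chromosome, the root-specific regions were most numerous from 30% to 40% of the span, with 221, and from 60% to 70%, with 198. The first and the last 10% held 30 each.

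The inner placement held on 17 of 20 chromosomes. The exceptions were chromosomes 9, 13 and 16. On chromosome 13, 30 of 44 regions lay in the outer parts, 26 of them in the first 20% of the span. On chromosome 9, 24 of 56 lay in the last 20%, and on chromosome 16, 11 of 19 did. The root-specific ratio was below that of the other reproducible root regions on 17 of 20 chromosomes as well, chromosomes 9, 16 and 17 being the ones where it was not. The rule favours this order, so it is a description.

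**Figure D3:**
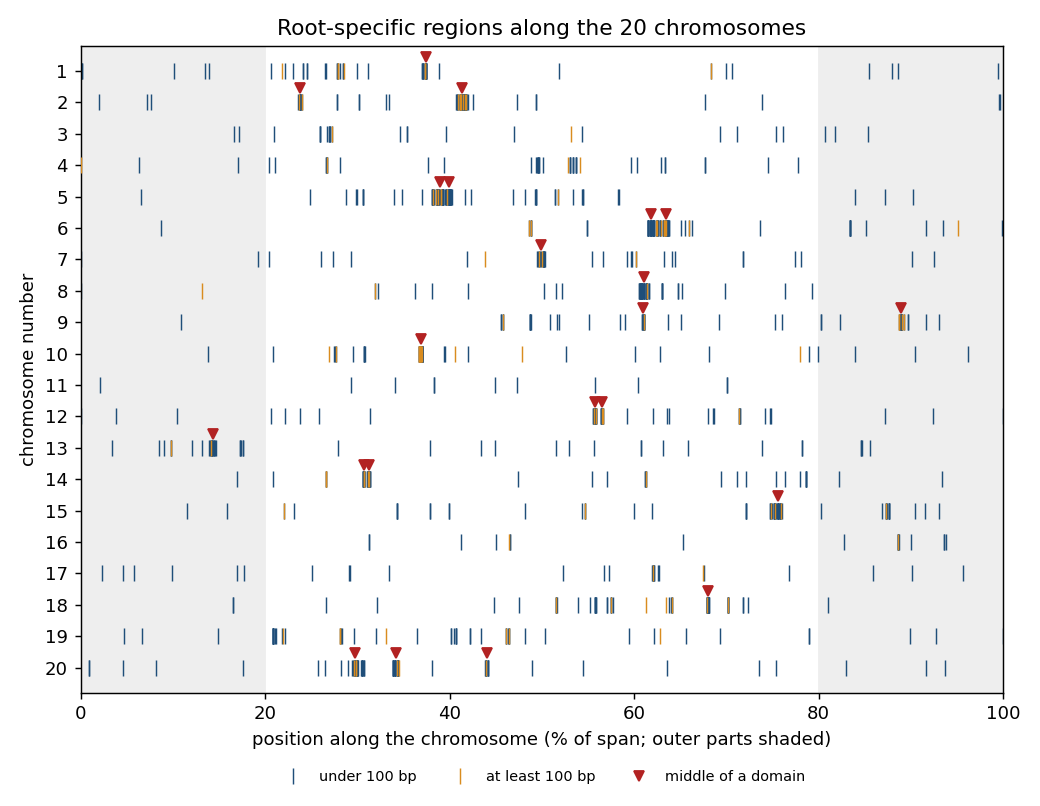
Each tick is 1 root-specific region, placed by its centre as a percentage of the span of its chromosome; blue ticks are under 100 bp wide, orange ticks at least 100 bp, and triangles mark the middle of each domain (at least 10 regions, neighbours at most 100 kb apart). Outer parts are shaded: 880 regions lie in the unshaded inner part, and 435 regions gather in the 22 domains, which lie on 14 of the 20 chromosomes.

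Much of the set was packed into a few short stretches. A domain is defined here, after the data were seen, as a run of at least 10 root-specific regions whose neighbouring centres lie at most 100 kb apart. There were 22 domains on 14 chromosomes, and they held 435 root-specific regions (41.6%) in 5.55 Mb, which is 0.585% of the span. Their length ran from 69.6 to 612 kb. Of the domains, 20 lay in the inner part, and the exceptions were those on chromosome 13 at 14.3% of the span and on chromosome 9 at 88.9%.

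Chromosome 10 had the richest domain. From 18891886 to 19105283 it packed 47 root-specific regions into 213 kb, which is 63.5% of all on that chromosome, and 9 of them were at least 100 bp wide. Of the 69 reproducible root regions in it, 68.1% were root-specific. Root 1 listed 120 sites there and root 2 listed 164, against 25 in leaf 1, 44 in leaf 2, 15 in flower 1, 2 in flower 2, 17 in seed 1 and 11 in seed 2. Both root lists thus stood above every other list although they are the shortest as whole lists. The root counts include sites under 100 bp, which the other lists do not hold.

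The domain at 19775939 to 20388286 on chromosome 2 held 42 root-specific regions in 612 kb. It was also rich in shared sites: its 184 reproducible root regions were root-specific in 22.8% of cases only. The lists held 287 and 226 root sites there, 86 and 150 leaf sites, 60 and 28 flower sites, and 99 and 65 seed sites. The domain at 28959027 to 29451990 on chromosome 8 held 32 root-specific regions, just 1 of them at least 100 bp wide, and 42.7% of its reproducible root regions were root-specific.

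Chromosomes 2, 5, 6, 9, 12, 14 and 20 each had more than 1 domain. On chromosome 5, the domains at 16270275 to 16593586 and at 16697061 to 16982583 held 27 and 23 root-specific regions. Those on chromosome 6, at 31599387 to 31923510 and at 32461271 to 32773610, held 25 and 20. On chromosome 20 there were 20 at 14096162 to 14418859, 20 at 16229014 to 16510357 and 10 at 21019473 to 21143670. Among the other tissues, the domain that starts at 16229014 on chromosome 20 had most sites in leaf 2, with 16. The other lists had 1 in leaf 1, 1 in flower 1, 0 in flower 2, 6 in seed 1 and 4 in seed 2.

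The domain at 44526396 to 44663340 on chromosome 9 lay near the end of its chromosome and was the emptiest in other tissues. It held 15 root-specific regions among 27 root 1 and 31 root 2 sites. Leaf listed 2 and 1 sites, flower 4 and 0, and seed none in either library. Chromosome 13 had its domain at 6376795 to 6746072 with 13 root-specific regions, and leaf 2 again listed more sites there (28) than leaf 1 (5).

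In each of the 22 domains both root libraries listed more sites than any other library. Domains were picked for their root-specific regions, so this is a description. The counts also have unlike width limits: root sites under 100 bp are included, and the other lists hold none so narrow. The order at a like width limit was not tested. The smaller root count was between 1.30 and 7.67 times the largest count among the other 6 lists, with a median of 2.44. Over all domains root 1 had 350 sites per Mb against 14.0 elsewhere, a ratio of 25.0, and root 2 had 281 against 18.4, a ratio of 15.2. Most other lists were thinner inside the domains than outside, with ratios of 0.848 in leaf 1, 0.825 in flower 1, 0.409 in flower 2, 0.847 in seed 1 and 0.728 in seed 2. The outside includes the chromosome ends, where the leaf, flower and seed lists are denser (outer-to-inner ratios from 2.62 to 3.30). As 20 of the domains lie in the inner part, these values do not show fewer sites than in the inner part around them.

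Leaf 2 was the exception among the other tissues in its density. It listed 751 sites in the domains against 375 in leaf 1, although the whole lists are of like length. Its density there was 1.74 times that elsewhere, and it exceeded leaf 1 in 19 of 22 domains and tied with it in 2. A one-sided order of the libraries was seen in the other tissues too: seed 1 exceeded seed 2 in 18 domains, flower 1 exceeded flower 2 in 18 although its list is the shorter, and root 1 exceeded root 2 in 17. With leaf 2 left out of the excluding lists, the number of root-specific regions rose from 1045 to 1357 and the number in domains from 435 to 721. Domains were found anew from the larger set, so the 721 are not a count inside the same 22 domains. The number of root-specific regions in domains thus depended on this single leaf library.

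**Figure D4:**
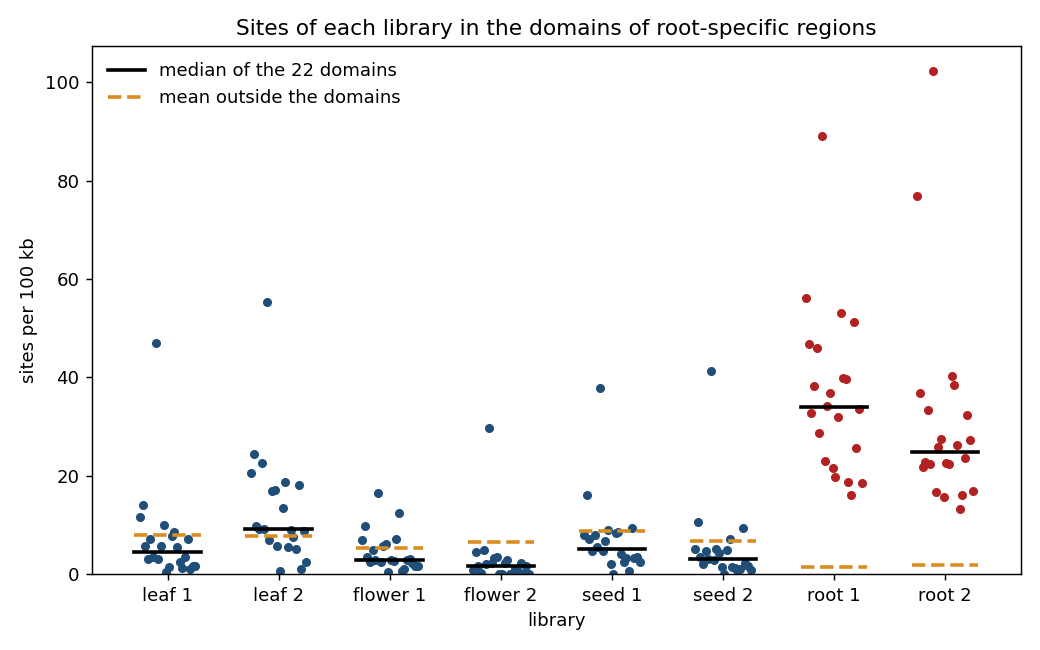
Sites per 100 kb in each of the 22 domains (1 point per domain) for each of the 8 libraries, with the median over domains (black line) and the mean density outside the domains (dashed orange line). Root points (red) lie far above their outside density, leaf 2 scatters around and above its own, and the medians of the other 5 libraries (blue) lie below theirs. The outside includes the chromosome ends, where the leaf, flower and seed lists are denser.

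Root-specific regions were not the only root regions in the domains. Of 1101 reproducible root regions inside domains, 435 (39.5%, 36.7 to 42.4) were root-specific, against 610 of 2768 (22.04%, 20.5 to 23.6) outside. The domains were chosen through the root-specific regions, so a higher share inside was set in advance. The 666 others inside domains met leaf 2 in 82.3% of cases, seed 1 in 50.5%, leaf 1 in 46.7%, seed 2 in 32.3% and flower 1 in 31.4%, and flower 2 in 133 of 666. A single list of the 6 was met by 37.4% of them, and all 6 by 10.2%. Outside domains the other reproducible root regions met leaf 1 in 75.3% and leaf 2 in 86.0%, and 45.5% met all 6 lists.

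Root sites inside domains were wider, with a median of 98 bp in root 1 and 96 bp in root 2, than elsewhere, where both medians were 66 bp. In the leaf, flower and seed lists the order was the opposite: medians ran from 130 to 148 bp inside and from 164 to 202 bp outside. Domains are places where both root libraries listed many sites at the same positions, so a high mutual overlap and root coverage inside them was set by the choice and is given as a description. Of the root 1 sites in domains, 55.1% were met by root 2, against 2780 of 13239 elsewhere, and of the root 2 sites 69.6% were met by root 1, against 16.3%. Root 1 sites covered 4.31% of the bases in domains and 0.115% elsewhere, and root 2 sites 3.38% and 0.146%.

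Places crowded with sites in 1 root library were also crowded in the other, and to a lesser degree in the other tissues. These windows were not matched to the domains. The 20 windows of 100 kb with the most root 1 sites held 40 to 76 of them each, and root 2 had 22 to 111 sites in the same windows, with a median of 36. The mean of root 2 in these windows was 23.3 times its mean over all windows. Read the other way, the 20 fullest windows of root 2 held 20 to 76 root 1 sites with a median of 49.5. The mean of root 1 in them was 30.1 times its mean over all windows. The lists of 20 windows had 15 in common. In the windows picked by root 1, the other libraries had 1.35 (flower 2) to 3.36 (leaf 2) times their own mean, and in those picked by root 2 they had 2.21 (seed 1) to 3.87 (leaf 2) times. The windows of root 1 held 176 root-specific regions (16.8%). Those of root 2 held 153 (14.6%), with at least 1 in 18 of the 20 windows.

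Smaller clusters were runs of at least 5 root-specific regions with neighbouring centres at most 10 kb apart. There were 24 clusters with 159 regions (15.2%) on 12 chromosomes, 21 of them inside a domain and 22 in the inner part. Single regions with no neighbour within 10 kb numbered 460 (44.0%), and 114 runs were pairs. Of the regions of at least 100 bp, 16 of 111 (14.4%) lay in clusters and 54 (48.6%) in domains. For those under 100 bp the numbers were 143 of 934 (15.3%) and 381 (40.8%). Without leaf 2 among the excluding lists, the clusters, found anew from the larger set, held 372 regions.

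Chromosome 10 held the fullest cluster, at 18949515 to 18985821, with 18 root-specific regions in 36.3 kb. Their widths ran from 30 to 178 bp and their spacings from 101 to 7767.5 bp. Of them, 3 consecutive regions at 18963148 to 18963416 were cut from a single root 1 site of 363 bp that met 3 root 2 sites. The same chromosome had a cluster of 8 at 19081379 to 19105283 and one of 7 at 19045337 to 19067056.

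Chromosome 18 had the next, at 39387046 to 39417241, with 12 regions, all under 100 bp. It was crowded in every tissue: the root lists held 45 and 48 sites there, and the others from 9 in flower 1 to 26 in leaf 2. At 40705073 to 40707274 the same chromosome packed 6 root-specific regions into 2.20 kb, with 7 sites in each root library and at most 2 in any other. The cluster of 9 on chromosome 14 at 15035196 to 15054634 had 24 and 19 root sites against 1 to 7 in the other lists.

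Clusters of 7 or 6 regions were found elsewhere too. Chromosome 1 had 7 regions at 21229410 to 21249262 and 6 at 21292123 to 21302260. Chromosome 2 had 6 at 20206138 to 20241125 and chromosome 8 had 6 at 29016832 to 29044936. On chromosome 9 there were 7 at 44618158 to 44628247, where only flower 1 listed any site of another tissue (2), and 6 at 30614275 to 30628104. Chromosome 19 had 6 at 10593823 to 10606120, with 11 and 8 root sites and at most 1 in any other list.

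In 3 clusters no library of another tissue listed any site. These were the cluster on chromosome 9 at 30614275, with 8 sites in each root library, the cluster of 5 on chromosome 10 at 18902480 to 18903945, with 5 root 1 and 4 root 2 sites, and the cluster of 5 on chromosome 16 at 33525910 to 33533446, with 6 and 10. Those on chromosomes 10 and 16 were singled out after their values were seen. On chromosome 16 the members measured 128, 45, 72, 82 and 50 bp. The nearest sites of other tissues lay 2132 to 6909 bp from them, and 18381 to 32146 bp from the members on chromosome 9.

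Spacing between neighbours was broad. The centre-to-centre distance of neighbouring root-specific regions had a median of 25767.5 bp, a lower quartile of 3340 bp and an upper quartile of 702323 bp. Of 1025 distances, 258 (25.2%) lay between 1 and 10 kb and as many between 10 and 100 kb. Another 52 (5.07%) lay between 100 and 250 kb, 108 (10.5%) between 250 kb and 1 Mb, and 220 (21.5%) at 1 Mb or more. In equal steps on the log scale, each step from 63096 to 630957 bp held 25 to 31 distances, against 41 to 71 in each from 1000 to 63096 bp and 47 to 65 in each from 630957 to 3981070 bp. The other reproducible root regions had 24.04% of their distances between 100 bp and 1 kb, where the root-specific regions had 12.0%.

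**Figure D5:**
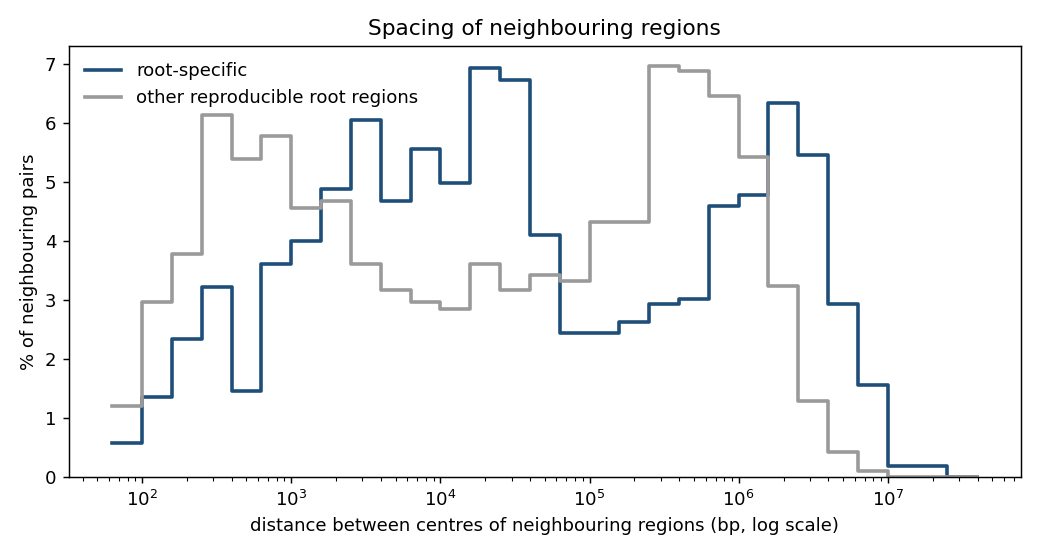
Percentage of neighbouring pairs by centre-to-centre distance on a log axis, for root-specific regions (blue, 1025 pairs) and the other reproducible root regions (grey, 2804 pairs). Root-specific pairs are spread from under 100 bp to over 10 Mb, with a shallow dip between 63096 and 630957 bp (25 to 31 pairs per bin).

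No single distance dominated the short spacings. Of 204 spacings up to 2000 bp, the fullest bin of 20 bp, from 340 to 360 bp, held 10 (4.90%), spread over 7 chromosomes. The next, from 140 to 160 bp, held 7. In the whole root lists the 340 to 360 bp bin did not stand out. Root 1 had 79 spacings in it and 87 in each of the adjoining bins, and root 2 had 97 against 94 and 73. Their own fullest bins lay at 160 to 180 bp in root 1, with 115 of 3520 spacings, and at 100 to 120 bp in root 2, with 137 of 3707.

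Some of the shortest spacings were internal to a site. Of the 32 spacings up to 200 bp, 15 joined pieces of the same root site, with 20 such pairs in all and none farther apart than 348.5 bp. The closest pair, 82 bp apart, ended at 15262720 on chromosome 8. Counts by distance were 26 from 100 to 200 bp, 21 from 200 to 300 bp, 24 from 300 to 400 bp and 6 from 400 to 500 bp. Measured within its own width class, the median spacing was 277260 bp for regions of at least 100 bp, with 3 of 92 spacings up to 2000 bp. For regions under 100 bp it was 32249.5 bp, with 165 of 914. The first class has 111 regions and the second 934 on the same chromosomes, so these spacings are not on a like footing. The part of the numbers in the difference was not tested.

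Spacing inside the domains was uneven. The coefficient of variation of the distances (SD divided by mean) ran from 0.770 to 2.13 over the 22 domains and exceeded 1 in 17. In the clusters the coefficient ran from 0.290 to 1.38 and exceeded 1 in 7 of 24.

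The most even cluster was the one on chromosome 2 at 20206138 to 20241125, picked out after its values were seen. Its 5 distances were 8163.5, 3546, 8263.5, 8212.5 and 6738 bp, so that 3 of them agreed within 100 bp. This cluster also lay among many other sites, with 42 in each root library and up to 30 in the others, and its 6 root-specific regions were 17.6% of its 34 reproducible root regions.

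Sites of other tissues were often near. The median distance from a root-specific region to the closest site of any other list was 1517 bp. For 107 regions (10.2%) it was under 100 bp, for 445 (42.6%) under 1 kb, and for 228 (21.8%) at least 10 kb. Regions of at least 100 bp had a median of 972 bp and those under 100 bp one of 1614 bp. Within domains the median was 789 bp and outside 2715.5 bp.

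The closest site was a leaf site for 566 root-specific regions (54.2%), a seed site for 312 (29.9%) and a flower site for 160 (15.3%), with 7 ties between lists. By library, the median distance was 2749 bp to leaf 2, 5073 bp to seed 1, 6938 bp to leaf 1, 9767 bp to flower 1, 11206 bp to seed 2 and 26408 bp to flower 2. The lists differ in length: leaf 2, the closest, has 74278 sites, leaf 1 has 75471 and seed 1 has 82798. The part of list length in this order was not tested. All 6 other lists had a site within 1 kb of 69 root-specific regions (6.60%), and none had for 600 (57.4%).

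The 3 most remote regions were singled out after their values were seen. On chromosome 4 the region at 10710858 to 10710951, 94 bp wide, had no site of another tissue within 440381 bp, and all 6 lists were between that and 445426 bp away. The region at 14239151 to 14239237 on chromosome 10 was 278307 bp from the nearest, in seed 2, and the one at 21740563 to 21740636 on chromosome 17 was 262062 bp from the nearest, in leaf 1. All 3 were under 100 bp wide, with root sites of 78 to 162 bp.

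Few regions sat at the limits of the definition. Root-specific regions with a shared width of 20 to 24 bp numbered 22, and 15 pairs of root sites that shared 15 to 19 bp and met no other tissue fell just short. On the other side, 5 root-specific regions lay 0 to 9 bp from a site of another tissue, and 11 reproducible regions were left out for an overlap of at most 9 bp. At the width limit, 37 regions measured 95 to 99 bp and 20 measured 100 to 104 bp.

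The number depended most on the need for both root libraries. With root 2 alone 9929 of its 18957 sites met no other tissue (1025 in clusters, 2299 in domains). With root 1 alone 7550 of 15185 did (1627 and 2167). For the regions found in both it was 1045 of 3869 (27.0%), a smaller share. The log2 outer-to-inner ratios were -0.17 with root 2 alone and -0.75 with root 1 alone, against -1.83 for the regions found in both. Domains carry part of the inner placement: without them the log2 ratio was -1.20. When every root site under 100 bp was dropped, 175 regions were left at a log2 ratio of -2.37, and none of them formed a cluster.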

How the data were processed

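The authors deposited 1 list of MNase hypersensitive sites per library, for 8 libraries. The submitters' processing notes name Trimmomatic 0.36, a read trimmer, and BWA 0.7.15-r1140, an aligner. For the site caller, its threshold and the build, the sources used here give nothing. The leaf, flower and seed lists carry a deposited score, whose definition is not stated; in 1 alternative, sites at or above the median score of their list alone could exclude a region. The deposited start and end of each site, other values in base pairs, were the measurements. Starts were taken to count from 0 and are printed counting from 1. Lines that repeat an earlier one were dropped, 479 of them in root 1 and 649 in root 2. The span of a chromosome is its last site end over all lists, 948.9 Mb in all.

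Intersections, distances, runs and intervals were computed in Python 3.11.15 with numpy 2.4.6, pandas 2.3.3 and statsmodels 0.14.6, and the functions were tested on simulated data. Distances to other tissues are the bases between edges, and spacings run from centre to centre. Named by rule are the 5 widest regions, 12 clusters with the most regions (1 more, on chromosome 19, ties with the last 5 and is given too) and the chromosomes with the most and fewest regions per Mb. Other named items, individual domains included, were picked after their values were seen. The members and lists were chosen with earlier results of these data known, and domains after seeing them. With 2 libraries per tissue no test was run. No gene annotation or sequence of the lists' build was used here, so regions are given by position.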

Additional observations from a re-analysis of the deposited data

How the results depend on the processing

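The inner placement kept its direction in every alternative run, with log2 outer-to-inner ratios from -2.37 to -0.17. The number of root-specific regions was 600 with no site of another tissue within 1000 bp, 1660 when only the upper part of each list by score could exclude, 1895 when only reproducible sites could, and 175 after dropping root sites under 100 bp. Leaving out a library gave 1057 to 9929 regions, the highest without root 1. The share under 100 bp was 86.8% with at least 50 bp shared, 36.6% after dropping root sites under 100 bp, 77.3% with reproducible excluding sites, 79.2% with the upper part by score, and 83.9% to 91.3% without a library. The log2 ratio was -1.43 with 30% at each end as the outer part, -2.37 after dropping root sites under 100 bp, -1.20 without the domains, and -2.02 to -0.17 without a library. Regions in clusters numbered 105 with at least 50 bp shared, 0 after dropping root sites under 100 bp, 31 with no other site within 1000 bp, 764 with reproducible excluding sites and 592 with the upper part by score. They numbered 88 with spacings up to 5 kb, 291 with up to 20 kb, 357 with clusters of at least 3 and 30 with at least 10, and 165 to 1627 without a library. The share of spacings up to 2000 bp was 9.68%, 13.8%, 33.9% and 32.5% after dropping root sites under 100 bp, with no other site within 1000 bp, reproducible excluding sites and the upper part by score, and 10.8% to 26.6% without a library. Under the same 4 settings domains held 13, 107, 1096 and 939 regions, and 438 to 2299 without a library. Without leaf 2 the clusters held 372 and the domains 721 regions. In each alternative, clusters and domains were found anew from its own set of regions. Fewer sites in the excluding or intersected lists move the counts by construction, and the cause of other shifts was not tested. No paired analysis was possible because the results come from no test and each region needs both root libraries. Depth is unknown, which limits any reading of absence.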
